A study of Mus musculus with 44 samples.

Results

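Liver gene expression of mice that lack Ripk3 (Ripk3-/-, here Ripk3KO) was compared with that of wild type mice (WT) after feeding on CD-LFD, which is low in fat and lacks choline. The comparison held the 3 Ripk3KO and the 6 WT libraries that the labels place on this diet, 9 of the 44 libraries of the series. All groups started their diet at 2 months of age and stayed on it for 6 months, after which RNA of whole liver tissue was sequenced. Set beside them were WT and Ripk3KO mice on normal chow (control, 6 and 6 libraries) and on CD-HFD, high in fat and without choline (6 and 4 libraries), and mice that lack Mlkl (Mlkl-/-, MlklKO) on CD-LFD (4 libraries). The series addresses inflammation driven by necroptosis in liver cancer. The labels give no strain, sex, litter or time of dissection, and do not say whether the knockout alleles were made in the strain of the WT mice or whether the WT mice were littermates. They number the libraries of a group without stating that each came from its own mouse, so p-values measure the spread between libraries.

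RIPK3 is a kinase of necroptosis, a lytic form of programmed cell death in which it activates the pore-forming protein MLKL. The liver also runs a circadian clock, in which BMAL1 (gene Arntl) pairs with CLOCK or NPAS2 to switch on the Per, Cry, Nr1d and Dbp genes through E-boxes, and the products of several of these genes then shut the pair down. Arntl and Dbp therefore peak at opposite times of day, and many liver metabolic genes follow the clock or feeding time. In the choline-deficient liver, phosphatidylcholine synthesis is limited and fat accumulates.

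Total counts ranged from 4676294 to 12266692 in 8 of the 9 libraries and reached 88204703 in WT library 3, and thinning that library to the median total of the others left 159 genes called in place of 164. Hepatocyte markers were present in all 9 libraries (summed level of 12 markers 86130 to 125400 CPM, counts scaled to library size, in WT and 96510 to 139600 in Ripk3KO). Of 93 genes tested from 13 lists of cell type markers, none was called by edgeR or DESeq2 and 4 had an unadjusted p under 0.05. Over all genes tested, edgeR called 1.1% and DESeq2 267 of 14862, and 11.4% had an unadjusted p under 0.05 in edgeR. No call among 93 genes is therefore close to the share over all genes. The list of muscle markers had no tested member and that of pancreas and gut 1 of 10. Ripk3KO libraries 2 and 3 stood apart. In library 2 the hepatocyte markers summed to 139600 CPM, above the WT range, and 6 lists lay below it, namely markers of lipid-associated macrophages (221 CPM, WT from 324), monocytes and macrophages (130, WT from 136), neutrophils (1.34, WT from 2.01), B and plasma cells (36.6, WT from 45.3), stellate cells (298, WT from 344) and cholangiocytes (84.0, WT from 153). Library 3 lay on the other side for most of these. Library 3 also held 144 counts of Xist, an RNA of female cells (11.7 CPM, against 0 and 2 counts in the other Ripk3KO libraries), while the Y-linked gene Ddx3y was at 50.1 CPM. Its summed marker level was above the WT range in 6 of the 14 lists. B and plasma cell markers summed to 172 CPM (36.6 and 44.5 in the other Ripk3KO libraries, 45.3 to 87.3 in WT), cholangiocyte markers to 653 (84.0 and 232, 153 to 491), lipid-associated macrophage markers to 938 (221 and 482, 324 to 789) and monocyte and macrophage markers to 390 (130 and 238, 136 to 279). Neutrophil markers (5.63, WT up to 5.06) and erythroid markers (197, WT up to 196) lay just above. Xist was called (log2 difference 3.34, adjusted p = 0.0234) and was not called without this library. The part of the make-up of libraries 2 and 3 in other results was not tested, and counts without each are given below. In bulk tissue, fewer cells of a type and less RNA per cell cannot be told apart.

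Ripk3 itself (ENSMUSG00000022221) checks the labels. It had 0, 0 and 1 counts in the 3 Ripk3KO libraries, or 0, 0 and 0.0815 CPM over all counts, and 1.10, 3.63, 1.16, 1.57, 4.91 and 4.12 CPM in the 6 WT libraries. The groups did not overlap, and with 3 counts in the smallest library as the floor the level in Ripk3KO was at least 3.78-fold lower. Of 20 genes of necroptosis and cell death, the targeted gene Ripk3 was the only member called (5%, against 1.1% of all genes). The necroptosis effector Mlkl differed by 0.11 on the log2 scale (adjusted p = 0.928). The log2 difference of Ripk3 was -5.36 (SE 0.974, adjusted p = 0.00162). Among the libraries set beside the comparison, 1 went against its label. The library labelled Ripk3KO control 5 held 9 counts of Ripk3 (1.01 CPM), a higher CPM than in 3 of the 6 WT control libraries (0.439, 0.853 and 0.866), while the other 5 Ripk3KO control libraries held 0 to 2 counts. Counts over the called genes on the control diet, and the genes called there, are given with and without it. Without it the CD-LFD comparison called 150 genes (1.01%), all of them among the 164 described next.

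On CD-LFD, 118 genes were higher and 46 lower in Ripk3KO than in WT, 164 of the 14862 genes tested (1.1% in either direction, 0.794% higher and 0.31% lower, quasi-likelihood F test of edgeR, p adjusted by Benjamini-Hochberg, threshold 0.05). Of these, 114 differed at least 2-fold (83 higher, 31 lower). In 152 of the 164 the values of the groups did not overlap, as was the case for 7.89% of all genes tested. The largest rises by the naming rule were in Usp2 and Ciart, both of the circadian clock, and the largest falls in Cebpe, a transcription factor gene of granulocytes, Arntl and Fgf21, a hormone released by the liver. The rule asked for no overlap between the groups, so the separation of genes it names adds no evidence below. The excess of rises depended on the scaling of the libraries. With library size in place of TMM factors, which moved the median log2 difference of all genes from 0.01 to -0.11, 69 genes were called higher and 74 lower. The count also depended on single libraries, with 21 genes called without Ripk3KO library 2, 77 without Ripk3KO library 1, 117 without Ripk3KO library 3, 98 without WT library 1 and 109 without WT library 6.

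A clock score was formed for each library as log2 CPM of Arntl minus that of Dbp, so that a low score marks livers with little Arntl and much Dbp. The score was -6.10, -7.33 and -6.47 in the Ripk3KO libraries (mean -6.63 ± 0.63, SD, n = 3) and -1.18, -1.60, -0.42, -2.66, -2.26 and -0.28 in the WT libraries (mean -1.40 ± 0.96, SD, n = 6). The groups did not overlap and their means lay 5.23 units apart (-5.23, Ripk3KO minus WT). That phase follows genotype here was known when the comparison was described, so the gap is given without a test, and the values of Arntl and Dbp below are a description of the same gap. The 4 MlklKO libraries on CD-LFD also had low scores, from -7.05 to -5.85. On CD-LFD, clock phase and genotype cannot be told apart, because no WT library had the phase of a Ripk3KO library. On the other diets the phases mixed, since 2 of 6 WT control and 5 of 6 WT CD-HFD libraries had low scores, as had all Ripk3KO libraries.

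**Figure D1:**
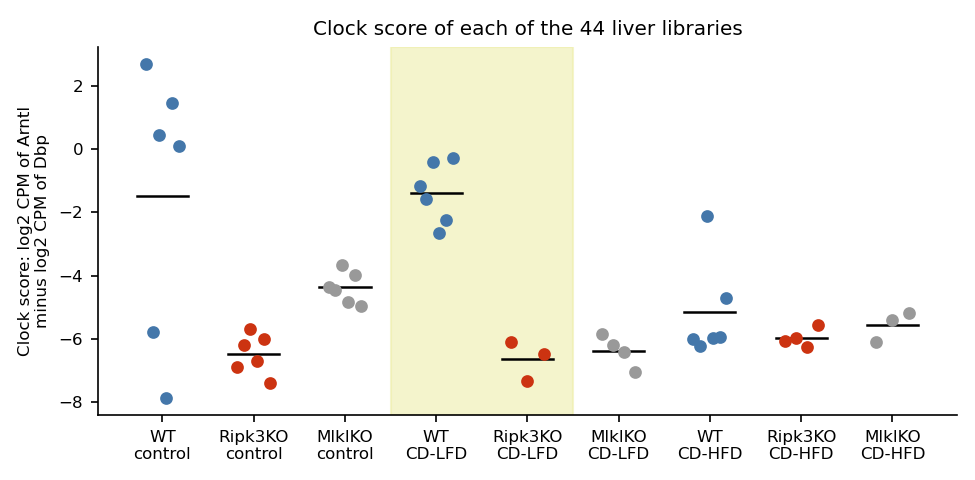
Clock score (log2 CPM of Arntl minus log2 CPM of Dbp, y axis) of each of the 44 libraries, by genotype and diet (x axis); each point is 1 library and each bar a group mean. On CD-LFD the 6 WT libraries lie between -2.66 and -0.28, and all 3 Ripk3KO libraries lie lower, between -7.33 and -6.10.

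Promoters of 4 clock genes with the elements through which the clock acts are shown, because their levels are described next. Each is the 250 bases before the RefSeq start site in GRCm38.p6, 5′ to 3′ on the gene's strand (Ciart chr3:95882229-95882478, minus; Bhlhe41 chr6:145865421-145865670, minus; Tef chr15:81802423-81802672, plus; Per3 chr4:151044666-151044915, minus). Capitals mark the E-box CACGTG, bound by BMAL1 and its partners, in the first 3 and the D-box TTATGTAA, bound by DBP, TEF and HLF, in Per3.
Ciart: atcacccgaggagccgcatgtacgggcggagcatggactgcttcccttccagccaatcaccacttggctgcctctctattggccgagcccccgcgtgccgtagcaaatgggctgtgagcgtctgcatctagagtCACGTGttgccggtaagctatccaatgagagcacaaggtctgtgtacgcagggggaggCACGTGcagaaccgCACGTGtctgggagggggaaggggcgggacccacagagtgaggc
Bhlhe41: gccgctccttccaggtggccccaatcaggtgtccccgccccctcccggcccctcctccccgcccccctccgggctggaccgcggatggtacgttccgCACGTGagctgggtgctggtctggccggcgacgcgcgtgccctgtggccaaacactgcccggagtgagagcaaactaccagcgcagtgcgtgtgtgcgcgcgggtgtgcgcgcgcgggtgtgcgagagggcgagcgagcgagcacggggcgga
Tef: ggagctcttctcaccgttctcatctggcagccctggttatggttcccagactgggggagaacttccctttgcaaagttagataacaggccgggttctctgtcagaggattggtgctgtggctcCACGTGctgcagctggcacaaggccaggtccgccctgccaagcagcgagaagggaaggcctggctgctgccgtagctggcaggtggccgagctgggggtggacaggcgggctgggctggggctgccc
Per3: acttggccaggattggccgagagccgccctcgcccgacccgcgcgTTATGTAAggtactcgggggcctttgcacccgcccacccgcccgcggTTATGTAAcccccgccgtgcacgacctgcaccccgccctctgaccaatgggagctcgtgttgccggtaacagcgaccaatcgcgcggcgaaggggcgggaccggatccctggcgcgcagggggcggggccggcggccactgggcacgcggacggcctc
Ciart held 3 E-boxes, starting at -116, -58 and -44 from the start site, Bhlhe41 held 1 at -153 and Tef 1 at -127, and Per3 held D-boxes at -205 and -158. Positions are those of the first base of a match, and -1 is the last base before the start site. Both strands were read, and the E-box is the same on both. The E-box was present in 5 of 16 core clock genes with a promoter in the table (31.2%), in 22 of 116 called genes (19%), in 6 of 32 of the clock-associated called genes defined below (18.8%) and in 1045 of 10921 genes tested (9.57%). The D-box was present in 0.65% of genes tested. The 4 promoters shown all hold a match, while those of Arntl, Npas2, Dbp, Usp2 and Por, whose levels are also described, held no E-box or D-box. A match is a description of the letters only.

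Core clock genes were ordered by role. Of 19 tested, 4 rose and 1 fell (26.3% called, against 1.1% of all genes), or 3 of 17 without Arntl and Dbp (17.6%), and 11 had no overlap between the groups (7 higher, 4 lower in Ripk3KO), as had 7.89% of all genes tested. Among the activators, Arntl was at 1.67, 1.05 and 1.44 CPM (scaled by TMM factors, as are all gene levels from here) in Ripk3KO and at 9.03 to 18.8 (median 10.7) in WT. It was 8.54-fold lower (log2 difference -3.09, SE 0.656). Npas2 was at 0.833, 0.211 and 0.755 in Ripk3KO against 3.07 to 7.21 in WT, without overlap, but missed the threshold (-2.92, adjusted p = 0.0891). Clock, the other partner of BMAL1, was at 20.6 to 25.3 against 27.6 to 42.9 and was not called (-0.54, adjusted p = 0.452).

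Among the repressors of the pair, Ciart was at 34.6, 54.8 and 21.9 CPM in Ripk3KO and at 2.10 to 6.35 (median 4.35) in WT, 8.98-fold higher (3.17, SE 0.651, adjusted p = 0.00523). Bhlhe41 was at 9.58, 11 and 8.84 against 2.13 to 4.53 (median 2.92), 3.09-fold higher (1.63, SE 0.371, adjusted p = 0.0158). Every Ripk3KO library lay above every WT library for both. Per3 (1.35, adjusted p = 0.199) was higher without overlap but not called, and Per1 (0.19), Per2 (0.57), Cry1 (-0.37), Cry2 (0.85), Nr1d1 (-0.37), Nr1d2 (0.23) and Bhlhe40 (-0.22) were not called either, with adjusted p between 0.185 and 0.854.

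The factors that bind the D-box rose in part. Dbp was at 130, 206 and 147 CPM in Ripk3KO against 15 to 61.5 (median 29.9) in WT, 4.76-fold higher (2.25, SE 0.585), and Tef at 195, 290 and 180 against 80.6 to 125 (median 94.2), 2.29-fold higher (1.19, SE 0.314, adjusted p = 0.0462). Neither gene's groups overlapped. Hlf (0.68, adjusted p = 0.426) and the opposing repressor Nfil3 (-1.10, adjusted p = 0.128) were not called, nor was the nuclear receptor gene Rora (0.20). The calls of Dbp and Tef were each lost in 8 of the 9 fits that left out 1 library, and without Ripk3KO library 2 none of the 5 core clock genes was called. Without Ripk3KO library 3, 2 were.

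**Figure D2:**
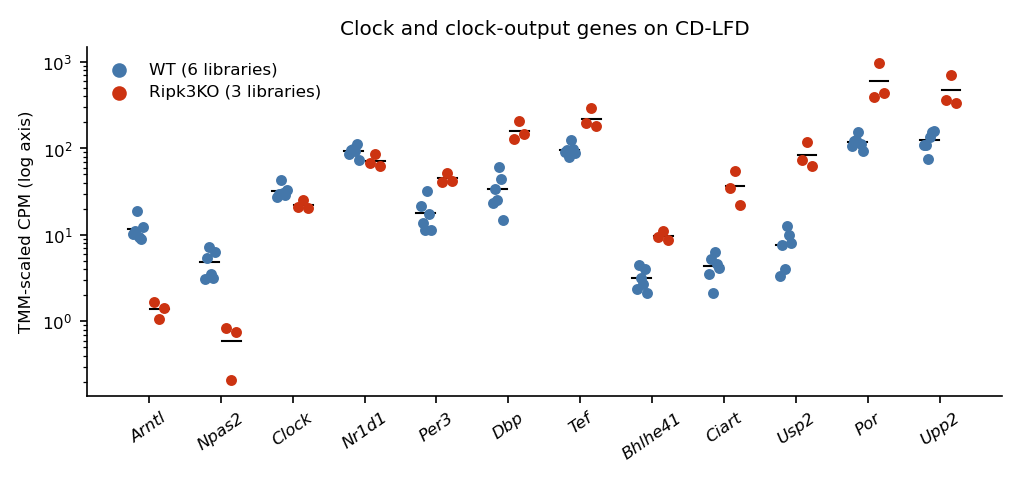
Level in TMM-scaled CPM (y axis, log scale) of clock genes in the 9 CD-LFD libraries; each point is 1 library, each bar a group mean, WT and Ripk3KO side by side (x axis). Arntl is lower and Ciart, Dbp, Tef and Usp2 are higher in all 3 Ripk3KO libraries than in any WT library.

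Of 17 clock output genes, 4 rose and none fell (23.5% called, against 1.1% of all genes). Usp2, a deubiquitinase gene with a clock-driven promoter, was at 73.1, 119 and 62.7 CPM in Ripk3KO and at 3.35 to 12.5 (median 7.8) in WT, 11.5-fold higher (3.52, SE 0.682, adjusted p = 0.00282). Por, the electron donor of the microsomal cytochrome P450 enzymes, was at 394, 978 and 436 against 93.5 to 155 (median 117), 5.06-fold higher (2.34, SE 0.352, adjusted p = 0.000137). All Ripk3KO libraries lay above all WT libraries for both. The uridine phosphorylase gene Upp2 (1.92, adjusted p = 0.0314) and the liver glycogen synthase gene Gys2 (1.23, adjusted p = 0.0187) also rose. Wee1 (1.46), Nampt (0.84), Tspan4 (1.01), Alas1 (1.39), Lpin1 (1.32), Rgs16 (0.88), Dtx4 (-1.0), Insig2 (-0.75), Noct (-0.47), Tsc22d3 (-0.43), Lonrf3 (-0.36), Pfkfb3 (0.15) and Ppard (-0.09) were not called. Por remained called without Ripk3KO library 2 (adjusted p = 0.0231) and Usp2 did not (0.0533), nor did Upp2 or Gys2 (0.333 and 0.326).

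The called genes were then separated by their relation to the clock in libraries outside the comparison. In the 35 other libraries, with 1 mean per group, 320 of 14860 genes other than Arntl and Dbp followed the clock score (2.15%, adjusted p under 0.05 for the slope) and are called clock-associated here. Within groups the score spread most in WT control (SD 4.29) and WT CD-HFD (SD 1.585), against 0.29 to 0.63 in the other groups used. The slope therefore rests mostly on these WT libraries, and other traits that follow the score there were not separated from it. Among the 162 genes called on CD-LFD besides Arntl and Dbp, 36 were clock-associated (22.2%), and in all 36 the slope gave the direction seen on CD-LFD (28 higher, 8 lower). Another 9 (5.56%) were not clock-associated and kept an adjusted p under 0.05 when the clock score entered the fit of all 44 libraries as a covariate. The remaining 117 (72.2%) belonged to neither class. Over all 162 called genes the slope gave the observed direction in 131 (80.9%, against 63.3% of all genes tested). The number of clock-associated calls depended on single libraries. It was 2 without Ripk3KO library 2 (9.52% of the calls of that fit), 17 without Ripk3KO library 1 (22.4%), 23 without Ripk3KO library 3 (19.7%) and 19 without WT library 1 (19.6%).

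**Figure D3:**
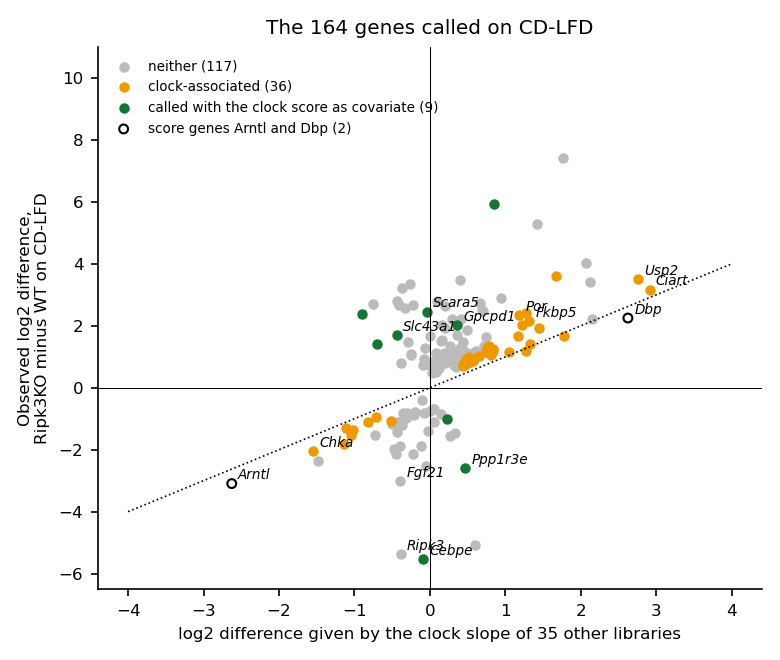
Observed log2 difference between Ripk3KO and WT on CD-LFD (y axis) of the 164 called genes against the difference that the clock slope of the 35 other libraries gives for a score difference of -5.23 (x axis); each point is 1 gene, coloured by class, and the dotted line marks equality. The 36 clock-associated genes lie in the quadrants of matching sign, and Cebpe and Scara5 lie near 0 on the x axis.

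With the covariate, 11 genes were called in all (0.074%), 7 higher and 4 lower. Ripk3 itself missed the threshold in that fit (-5.05, adjusted p = 0.0716). The covariate fit reads a difference that the CD-LFD libraries alone cannot resolve, since it takes the slope from the other groups and from the spread within groups. In the direction seen on CD-LFD, the median log2 difference of the 36 clock-associated genes was 1.26 without and 0.37 with the covariate, and their median SE was 0.304 and 0.264. For the 117 genes of neither class it was 1.12 without and 0.83 with it, while their median SE grew from 0.259 to 0.316. For the 9 genes it was 2.39 and 2.55. The 36 were chosen by their slope on this score in libraries of the same fit, and the 9 by their call in that fit. These class medians therefore follow in part from the choice and test nothing. Without the library labelled Ripk3KO control 5 the covariate fit called 14 genes (0.0943%), which included the 11 and Ripk3 (adjusted p = 0.0211), and 35 of the 36 clock-associated genes remained so.

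Among clock-associated genes outside the clock lists, Fkbp5, a co-chaperone of the glucocorticoid receptor, was at 78.3, 168 and 67.6 CPM in Ripk3KO and at 18 to 29.3 (median 23.5) in WT. It was 4.48-fold higher (2.16, SE 0.396, adjusted p = 0.00173), and the clock slope alone gave a difference of 1.32. Chka, the kinase of the first step from choline to phosphatidylcholine, was at 42.5, 29.3 and 49 against 84.3 to 367 (median 145), 4.11-fold lower (-2.04, SE 0.519, adjusted p = 0.0353), and the slope gave -1.55. The groups of Fkbp5 and Chka did not overlap, as the naming rule required. The manganese exporter gene Slc30a10 (-1.53, adjusted p = 0.0382, slope -1.05) and the tubulin gene Tubb2a (-1.83, adjusted p = 0.0216, slope -1.15) also fell. With the covariate these genes had differences of 0.80, -0.38, -0.45 and -0.69, none of them called. Without Ripk3KO library 2, the adjusted p of Fkbp5 was 0.101, of Chka 0.265, of Slc30a10 0.224 and of Tubb2a 0.244. Fkbp5 lost its call in 1, Tubb2a in 4, and Chka and Slc30a10 in 5 of the 9 fits that left out 1 library.

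The 9 genes called both without and with the covariate were Gm3375, Scara5, Eif4ebp3, Gpcpd1, Slc43a1 and Nlrp12, all higher in Ripk3KO, and Cebpe, Ppp1r3e and Psmb5, all lower. With libraries split into 2 classes of score as the covariate instead, Scara5, Eif4ebp3, Gpcpd1 and Nlrp12 were not called. Gm3375, Slc43a1, Cebpe, Ppp1r3e and Psmb5 were. The predicted gene Gm3375 (ENSMUSG00000107470) was at 44.6, 45.5 and 48.7 CPM in Ripk3KO and at 0.517 to 1.26 (median 0.786) in WT, 60.6-fold higher (5.92, SE 0.358, adjusted p = 7.84e-16), and differed by 5.01 with the covariate (adjusted p = 5.02e-08). Its level in the 4 MlklKO libraries on CD-LFD, 0.339 to 0.745, lay within or below the WT range. A predicted gene may share reads with a near-identical copy, and its identity is uncertain to that extent.

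Scara5, a scavenger receptor for ferritin, was at 39.2, 55.9 and 27.2 CPM in Ripk3KO and at 4.84 to 12.9 (median 5.72) in WT, 5.50-fold higher (2.46, SE 0.394, adjusted p = 0.000325). Gpcpd1, which releases choline from glycerophosphocholine, was at 159, 286 and 157 against 43 to 57.9 (median 49.8), 4.03-fold higher (2.01, SE 0.28, adjusted p = 3.03e-05). Slc43a1, a transporter of large neutral amino acids, was at 17.7, 27.6 and 15.5 against 4.33 to 9.25 (median 5.54), 3.27-fold higher (1.71, SE 0.267, adjusted p = 0.000257). No Ripk3KO library overlapped the WT range for any of the 3. Eif4ebp3, a repressor of translation initiation, was at 8.96, 9.49 and 8.46 against 0.533 to 3.35 (2.39, adjusted p = 0.000883), and Nlrp12, a NOD-like receptor, at 105, 140 and 81.1 against 29.4 to 49.6 (1.42, adjusted p = 0.0129). With the covariate the 5 genes differed by 2.55, 1.61, 2.14, 3.16 and 1.99. Without Ripk3KO library 2, 4 genes were called with the covariate, among them Gm3375, Cebpe and Slc43a1, and the other 6 of the 9 were not, at adjusted p between 0.0533 (Eif4ebp3 and Psmb5) and 0.243 (Gpcpd1). Without Ripk3KO library 3, 9 genes were called with it, among them all of the 9 but Gpcpd1 (adjusted p = 0.0594).

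Cebpe was at 0.208, 0 and 0.831 CPM in Ripk3KO and at 13.8 to 31.2 (median 24.7) in WT, a fitted log2 difference of -5.53 (SE 0.663, adjusted p = 1.36e-06, and -5.45 with the covariate) that rests on 1, 0 and 11 counts in Ripk3KO. Ppp1r3e, a subunit that directs protein phosphatase 1 to glycogen, was at 0.625, 0.211 and 0.907 against 3.06 to 4.87 (median 4.17), a fitted difference of -2.59 (SE 0.493, adjusted p = 0.00267) on 3, 1 and 12 counts. Psmb5, a catalytic subunit of the proteasome, was at 44.2, 41.9 and 51.7 against 77.6 to 109 (median 92.5), 2.03-fold lower (-1.02, SE 0.193, adjusted p = 0.00256). The groups were separate for all 3, which are neighbours of Ripk3 on chromosome 14. In a window of 50 tested genes upstream and 50 downstream of Ripk3, 5 of 100 were called (5.0%), as were 14 of 507 genes tested on that chromosome (2.76%) and 1.1% of all genes. Among the called neighbours that were higher in Ripk3KO, Gm16573 was at 7.92, 13.5 and 6.87 CPM against 3.26 to 5.68 (1.18, adjusted p = 0.0346). Closeness to the targeted gene was not tested as a cause. Ppp1r3e and Psmb5 each had an adjusted p of 0.0533 without Ripk3KO library 2, and Gm16573 lost its call in 6 of 9 such fits.

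**Figure D4:**
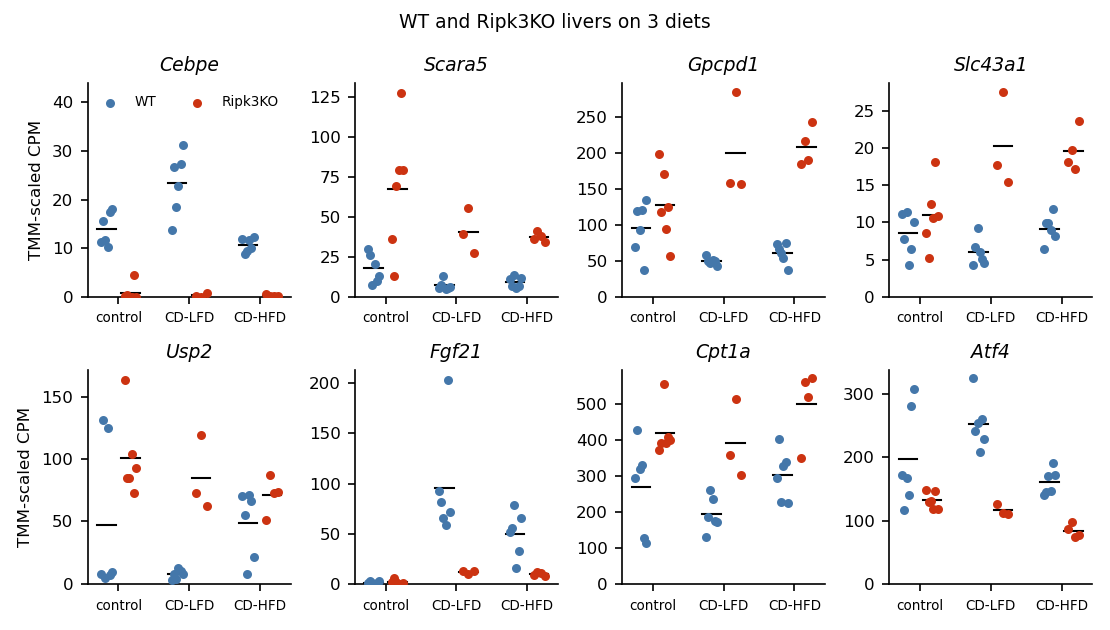
Level in TMM-scaled CPM (y axis) of 8 genes in WT and Ripk3KO libraries on the control diet, CD-LFD and CD-HFD (x axis); each point is 1 library and each bar a group mean. Cebpe is at 0 to 0.831 in Ripk3KO on all diets except in the library labelled Ripk3KO control 5 (4.47, below the WT range), Fgf21 is high in WT on both choline-deficient diets, and Usp2 spreads over 4.43 to 131 among WT control libraries.

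The metabolic genes described next all belonged to neither class, apart from Chka. Fgf21 was at 12.7, 9.70 and 12.9 CPM in Ripk3KO and at 92.1, 81.3, 65.3, 59.1, 203 and 71.7 in WT, 8.04-fold lower (-3.01, SE 0.515, adjusted p = 0.000732). Every Ripk3KO value lay below every WT value. Its slope on the clock gave -0.39, and with the covariate it differed by -2.80 (SE 0.698, adjusted p = 0.116). It was called in all 9 fits that left out 1 library (adjusted p up to 0.0253).

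Of 24 genes of fatty acid oxidation and PPAR alpha targets, 5 rose and 1, Fgf21, fell (25% called, against 1.1% of all genes). The median difference was 0.61, against 0.01 over all genes. The acyl-CoA thioesterase gene Acot1 was at 16, 33.5 and 6.04 CPM against 0.618 to 4.99 (2.5, adjusted p = 0.0266), and the fatty acid hydroxylase gene Cyp4a31 at 24.4, 67.9 and 13.4 against 4.33 to 12.9 (2.01, adjusted p = 0.0187). Cpt1a, which admits fatty acids to mitochondria, was at 357, 514 and 303 against 130 to 260 (1.02, adjusted p = 0.049). Creb3l3, a transcription factor that acts with PPAR alpha, was at 416, 461 and 312 against 225 to 296 (0.59, adjusted p = 0.0382). None of these 4 genes overlapped between the groups, and Ripk3KO library 2 was the highest for each of them. Ppara itself was not called (0.59, adjusted p = 0.485). Acot1 and Cyp4a31 have close paralogs with which reads may be shared. Without Ripk3KO library 2 only Fgf21 of the list was called, and with the covariate none was, with a median of 0.37.

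Other lists held few calls. In the unfolded protein and integrated stress response, Atf4, the central transcription factor of that response, was at 127, 112 and 111 CPM against 208 to 325 (median 248), 2.17-fold lower (-1.12, SE 0.217, adjusted p = 0.00282). Ddit3, which encodes CHOP, was at 18.1, 13.3 and 18.2 against 22.5 to 71 (-1.44, adjusted p = 0.0474), while Asns, asparagine synthetase, was at 27.9, 36 and 23.3 against 5.06 to 17 (1.71, adjusted p = 0.0273). The groups were separate for all 3, and the other 17 of the 20 genes were not called (15% called, against 1.1% of all genes). Asns, which ATF4 is known to activate, moved opposite to Atf4. In choline and methionine metabolism 1 of 20 rose, Mat1a, the liver enzyme that makes S-adenosylmethionine (2172, 3164 and 2341 CPM against 1205 to 1898, 0.85, adjusted p = 0.0322), and 2 fell, among them Chka (15% called). Angptl4, a secreted inhibitor of lipoprotein lipase, rose from 68.1 to 164 in WT to 344, 343 and 239 (1.46, adjusted p = 0.00994). In lipogenesis 1 of 21 genes fell, Fasn, fatty acid synthase (377, 282 and 582 against 513 to 3146, overlapping, -1.55, adjusted p = 0.049), or 4.76%. Of these 6 genes, none was called without Ripk3KO library 2, at adjusted p between 0.0533 (Atf4) and 0.34 (Mat1a). Without Ripk3KO library 3, 1 member of the stress response list and none of the choline and methionine list was called.

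No member passed the test in the lists of inflammation (20 genes tested, median -0.30), fibrosis (19, median 0.08), acute phase proteins (19, median 0.33), interferon-stimulated genes (20, median 0.39), proliferation (20) or liver tumour-associated genes (20). With 1.1% of all genes called, no call in a list of 19 or 20 is near that share. It does not show that these lists were unchanged. Il1b differed by -0.95, Ccl2 by -0.45, Col1a1 by 0.07, Saa1 by 0.72 and Mki67 by -0.52, with adjusted p of 0.515 to 0.972. With the clock covariate, Usp18, an interferon-stimulated protease gene that removes ISG15, was called (1.70, adjusted p = 0.0479). That call was lost without Ripk3KO library 2 (1.75, adjusted p = 0.111) and without library 3 (1.73, adjusted p = 0.0926). It was at 53.7, 34.1 and 39.4 CPM against 16.8 to 31.7 and was not called without the covariate (0.83, adjusted p = 0.194). On simulated counts with these group sizes the test recovered 43% of 200 genes changed 2-fold and 89% of those changed 4-fold, so that many changes of 2-fold or less would be missed.

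Further genes named by the size of their change were the leptin receptor gene Lepr at 7.08, 33.3 and 9.22 CPM against 0.932 to 6.42 (2.48, adjusted p = 0.0288), Fbf1, of the base of cilia, at 168, 207 and 92.1 against 10.5 to 41.9 (2.79, adjusted p = 0.00256), Dlec1 at 14.4, 12.2 and 2.87 against 0.698 to 2.67 (2.64, adjusted p = 0.01) and the pseudogene Gtpbp4-ps1 at 12.1, 4.85 and 4.83 against 0.247 to 4.17 (2.22, adjusted p = 0.0467). Among falls were Nid2, a basement membrane protein, at 2.71, 1.69 and 1.96 against 6.88 to 9.94 (-1.96, adjusted p = 0.00055), Ppp1r3b, another glycogen-targeting subunit, at 52.1, 68.9 and 36.4 against 123 to 164 (-1.46, adjusted p = 0.0318), the calcium pump gene Atp2b2 at 0.625, 3.37 and 3.85 against 8.16 to 27.8 (-2.38, adjusted p = 0.0289), Carmil1, a regulator of actin capping, at 5.83, 7.17 and 7.25 against 15.9 to 25.4 (-1.51, adjusted p = 0.0288) and the small nucleolar RNA Snora20 (-1.87, adjusted p = 0.0157). Of these 9 genes, Nid2 was called in all 9 fits that left out 1 library, Fbf1 in all but that without Ripk3KO library 2 (adjusted p = 0.0533), and the others were lost in 2 to 8 of them.

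The other diets gave values from libraries that are not in the CD-LFD contrast. They entered the same fit, and so share its count filter and dispersion estimate. Between Ripk3KO and WT, 4.47% of genes were called on the control diet and 0.377% on CD-HFD. Of the 164 genes called on CD-LFD, 157 had the same direction on CD-HFD (95.7%, against 63.3% of all genes) and 23 were called there in that direction, and on the control diet 152 had it (92.7%, against 61.4%) and 54 were called. Without the library labelled Ripk3KO control 5 these were 150 (91.5%, against 60.8%) and 46. To compare at a like clock phase, the WT libraries with a high score were left out, which kept 5 WT and 4 Ripk3KO libraries on CD-HFD (0.373% of genes called) and 2 WT and 6 Ripk3KO libraries on the control diet (0.925%). This step was added after the data had been seen, and the slope that defines the clock-associated class was fitted in part on the libraries left out.

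At like phase on CD-HFD, the median difference in the direction seen on CD-LFD was 0.45 for the 36 clock-associated genes, 1.70 for the 9 genes called with the covariate and 0.53 for the 117 others. The same direction was found in 33 of 36, 9 of 9 and 110 of 117 genes (61.7% of all genes tested), and 5, 7 and 13 were called. At like phase on the control diet the medians were -0.14, 2.34 and 0.29, the same direction was found in 13 of 36, 9 of 9 and 85 of 117 (45.6% of all genes), and 0, 5 and 4 were called. Without the library labelled Ripk3KO control 5, 3.15% of genes were called on the control diet and 0.647% at like phase there. The like-phase medians were then -0.11, 2.41 and 0.26, with the same direction in 12, 9 and 83 genes (45.1% of all genes) and 0, 5 and 4 called.

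**Figure D5:**
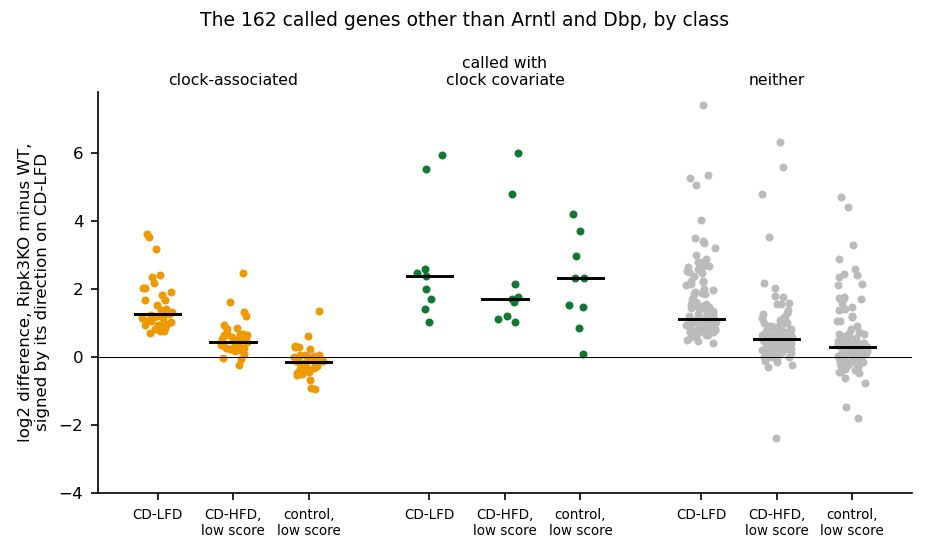
Log2 difference between Ripk3KO and WT, signed by its direction on CD-LFD (y axis), of the 162 called genes other than Arntl and Dbp on CD-LFD and, at low clock score, on CD-HFD and the control diet (x axis, by class); each point is 1 gene and each bar a class median. The clock-associated medians are 1.26, 0.45 and -0.14, and those of the genes called with the covariate 2.39, 1.70 and 2.34.

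Single genes differed in this respect. Arntl and Dbp are left out here, because the libraries were kept by the score that these genes form. Usp2 (0.32 and -0.35) and Ciart (0.44 and 0.29) were not called on either. Por (0.96, adjusted p = 0.0303) and Fkbp5 (1.32, adjusted p = 0.00341) were called at like phase on CD-HFD and not on the control diet (0.01 and 0.61), although both were called there with all 6 WT libraries (1.03, adjusted p = 0.0376, and 1.79, adjusted p = 0.00112). Without the library labelled Ripk3KO control 5, Por missed the threshold in the latter comparison (1.06, adjusted p = 0.0512) and Fkbp5 did not (1.82, adjusted p = 0.00191). Gm3375 (4.80 and 4.19), Cebpe (-5.99 and -3.70), Ppp1r3e (-1.70 and -2.34) and Psmb5 (-1.63 and -1.46) were called on both. The library labelled Ripk3KO control 5 had the lowest Gm3375 (16.1 CPM, against 30.1 to 55.8 in the other 5), the highest Cebpe (4.47 against 0 to 0.419) and the highest Ppp1r3e (4.19 against 0.583 to 1.63, within the WT range of 2.28 to 8.61) of the Ripk3KO control libraries. Without it the like-phase differences on the control diet were 4.36, -6.68 and -3.04 for these 3 genes and -1.52 for Psmb5, all called. Fgf21 was lower at like phase on CD-HFD (-2.18, adjusted p = 0.0117), where Ripk3KO libraries were at 7.42 to 11.8 CPM and the 5 WT libraries of low score at 15.6 to 65.7. On the control diet it was at 0.158 to 6.07 in Ripk3KO and at 0 and 2.69 in the 2 WT libraries of low score (0.17). Atf4 (-0.92, adjusted p = 0.00189) and Ddit3 (-1.60, adjusted p = 0.00382) were likewise lower on CD-HFD and not called at like phase on the control diet (0.04 and 0.46), where Atf4 was called with all 6 WT libraries (-0.58, adjusted p = 0.0371, and -0.61, adjusted p = 0.0487, without the library labelled Ripk3KO control 5). Gpcpd1 (1.77, adjusted p = 4.21e-05), Scara5 (2.16, adjusted p = 0.00177) and Slc43a1 (1.12, adjusted p = 0.0303) were higher on CD-HFD and not called at like phase on the control diet (0.09, 1.53 and 0.85), where Scara5 was called with all 6 WT libraries (1.91, adjusted p = 0.000473, and 1.62, adjusted p = 0.00283, without that library). Asns did not share its CD-LFD direction on CD-HFD (-0.22) and Acot1 (2.04) missed the threshold there (adjusted p = 0.0902).

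The difference between diets was also tested directly, as an interaction over all libraries. Between CD-LFD and CD-HFD no gene was called (0%, edgeR, 541 genes at an unadjusted p under 0.05 and 1 gene called by DESeq2). Between CD-LFD and the control diet 4 genes were called (0.0269%, 1230 at an unadjusted p under 0.05). For the acute phase genes Saa1, Saa2 and Lcn2 the difference on CD-LFD was small (0.72, 0.74 and 0.19) and that on the control diet large (7.05, 7.98 and 7.01), with interactions of -6.33, -7.24 and -6.83 (adjusted p = 0.0184 each). On the control diet Saa1 ranged from 13.2 to 9103 CPM over the 6 Ripk3KO libraries, with a median of 2443, and from 12.3 to 43.7 in WT, so that the Ripk3KO libraries differed widely among themselves. Dlec1 was higher on CD-LFD and at -1.64 on the control diet (-1.42 without the library labelled Ripk3KO control 5, interaction 4.28, adjusted p = 0.0184). Saa1 and Saa2 are near-identical copies that may share reads. No interaction was called without Ripk3KO CD-LFD library 1 or 2 and 1 was without library 3, while 26 were called without Ripk3KO control library 1 and 16 without Ripk3KO control library 2. No interaction was called with a robust fit or with the replicate block, 33 were with DESeq2 and 22 without a count filter. Without the library labelled Ripk3KO control 5, which had the highest Saa1, 5 were called, and the differences of Saa1, Saa2 and Lcn2 on the control diet were 6.39, 7.27 and 6.51.

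On the same diet, MlklKO libraries had a clock score like that of the Ripk3KO libraries, and 2.56% of genes were called between MlklKO and the same 6 WT libraries, which both comparisons share. Levels are therefore set side by side without a test. Usp2 was at 64.8 to 157 CPM and Por at 483 to 749 in the 4 MlklKO libraries, each range overlapping that of Ripk3KO. Fgf21 was at 11.3 to 15.9 in MlklKO and 9.70 to 12.9 in Ripk3KO, Gpcpd1 at 134 to 183 and 157 to 286, Scara5 at 18.9 to 34.7 and 27.2 to 55.9, Slc43a1 at 14.3 to 20 and 15.5 to 27.6, and Atf4 at 112 to 178 and 111 to 127, all overlapping. Of the called neighbours of Ripk3, Gm16573 also overlapped (9.69 to 16.2 and 6.87 to 13.5) and the 3 lower ones did not. Cebpe was at 10.3 to 16.5 in MlklKO and 0 to 0.831 in Ripk3KO, Ppp1r3e at 4.01 to 7.30 and 0.211 to 0.907, and Psmb5 at 89.8 to 109 and 41.9 to 51.7. Ppp1r3b (80.4 to 247 and 36.4 to 68.9), Fbf1 (22.3 to 66.8 and 92.1 to 207) and, narrowly, Eif4ebp3 (4.62 to 8.34 and 8.46 to 9.49) were also separate between the knockouts.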

How the data were processed

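RNA of mouse liver was sequenced from 44 libraries in 9 groups. The deposited values are raw read counts per gene, made by the authors with STAR and HTSeq on GRCm39, per the submitters' processing notes, which give no versions and do not say whether strand was used. The kit is directional, per the labels. Of 35249 gene identifiers, 34373 had a symbol, and tested genes held 99.8% of counts. Genes passing filterByExpr (minimum count 10) were tested in 1 fit of all groups with edgeR 4.0.16 (R 4.3.3), TMM factors, the quasi-likelihood F test and Benjamini-Hochberg adjustment (0.05). The clock score used log2 CPM with a prior count of 2. Alternatives were DESeq2 1.42.0, other scalings, no filter, a clock covariate, a replicate block and leaving out libraries.

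Named were Ripk3, the 12 largest rises and falls (mean log2 CPM of at least 1, no overlap, no predicted genes), all clock list members, up to 4 members of other lists, called neighbours of Ripk3 and called interactions. Genes called with the covariate were named after their values were seen. Some genes that this rule names are not reported here. Members and lists were chosen with earlier results of these data known. Promoters came from RefSeq (GRCm38.p6), so coordinates are given for the promoters shown only, on that build. The test was tried on simulated data. Depth sets precision: at 4676294 total counts, the smallest of the 9 compared libraries, 3 counts were the floor.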

Additional observations from a re-analysis of the deposited data

Results flagged for a closer look

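Among 57 values tested in the 6 WT CD-LFD libraries, 6 had 1 library far from the other 5, and chance flags about 1 in 20 groups. WT library 3 was high for Scara5 (12.9 CPM, others 4.84 to 7.61), Arntl (18.8, others 9.03 to 12.4) and Clock (42.9, others 27.6 to 32.8). WT library 5 was high for Fgf21 (202.7 CPM, others 59.1 to 92.1), WT library 1 for Atp2b2 (27.8, others 8.16 to 15.2) and WT library 6 for Chka (367 CPM, others 84.3 to 165).

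The difference between Ripk3KO and WT differed between CD-LFD and the control diet in 4 genes, by the interaction test of edgeR. The interaction was 4.28 for Dlec1, -6.83 for Lcn2, -6.33 for Saa1 and -7.24 for Saa2 on the log2 scale (adjusted p = 0.0184 each). Over 30 alternative fits, Dlec1 was called in 23 and each of the other 3 genes in 25, and none changed sign.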

How the results depend on the processing

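Against 164 genes in the report, DESeq2 called 267, the clock covariate 11 and a covariate of 2 phase classes 7; added after seeing the data, the clock covariate called 4 without Ripk3KO library 2 and 9 without library 3, and 14 without the library labelled Ripk3KO control 5. Leaving out 1 library gave 21 to 169. Restricting the fit to the 9 libraries called 233, of which 117 were among the 164. The diet interaction against control (4 genes) had 22 without a count filter, 33 with DESeq2, 0 with a robust fit, 0 with the replicate block and 0 to 26 with 1 library left out. That against CD-HFD (0 genes) had 4 without a filter, 1 with DESeq2 and 0 with any library left out. Genes following the clock score (322, with Arntl and Dbp) were 189 with 2 classes, 151 with a score from Npas2, Per3 and Nr1d1, and 108 in 12 WT libraries. Among the 45 named genes called in the report, log2 differences that changed sign with 2 phase classes were Usp2 -0.075, Ciart -0.57, Dbp -0.73, Slc30a10 0.065 and Tef -0.42. With the clock covariate they were Dbp -0.34 and Tef -0.10 (3 of all 164 called genes and 14 of the 31 named genes not called changed sign), without Ripk3KO library 2 Dbp -0.36 and Tef -0.23, and without library 3 Dbp -0.36, Tef -0.019 and Xist -0.96, and without the library labelled Ripk3KO control 5 Dbp -0.34 and Tef -0.10. Xist was -0.93 without library 3 in the fit without covariate and reached 3.91 without WT library 4. The cause was not tested. The replicate block called 145 genes; same-numbered libraries correlated at 0.04, -0.14 and -0.29, so the numbers did not pair them. All 76 named genes kept direction and side of the threshold with RLE factors, and 68 with library size.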

Other observations

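Of genes outside the lists, 6 are given as single values, chosen after their values were seen and not as members of a group. Higher in Ripk3KO on CD-LFD was Pnpla2, which starts triglyceride breakdown, at 161, 250 and 155 CPM against 67.1 to 91.3 in WT (log2 difference 1.28, adjusted p = 0.000658). Lipe, a hormone-sensitive lipase, was at 26, 37.9 and 18.8 against 9.6 to 17.7 (1.16, adjusted p = 0.00422), and Slc22a5, a carnitine transporter, at 68.5, 79.9 and 37.5 against 12.7 to 25.1 (1.91, adjusted p = 0.00055). Lower was Tuba1c, a tubulin gene, at 44.8, 36.5 and 50 CPM against 90.5 to 203 (-1.40, adjusted p = 0.00267). Tubb4b was at 109, 91.5 and 103 against 148 to 287 (-0.98, adjusted p = 0.00762) and Tuba4a at 92.3, 105 and 87.6 against 117 to 232 (-0.85, adjusted p = 0.0103). Without Ripk3KO library 2, Slc22a5 was called (adjusted p = 0.0253) and the other 5 were not, at adjusted p from 0.0533 (Pnpla2 and Tuba4a) to 0.195 (Lipe). With the clock covariate none of the 6 was called, at adjusted p from 0.0877 (Tuba1c) to 0.47 (Tuba4a). Tubulin genes have close paralogs that may share reads, and how many other tubulin genes changed is not given here.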
